A study of Homo sapiens with 8 samples.

Results

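The genes described here are 8 acute-phase and epithelial defence genes, SAA1, SAA2, PDZK1IP1, LCN2, PI3, SLPI, C3 and CFB, measured by RNA-seq in Kyse510 cells, an established line of human esophageal squamous cell carcinoma. They were picked by name from the 34164 genes listed in either of 2 deposited FPKM tables, with their values in all 8 libraries already known, so every level and fold below is a description and carries no test. The pharmacological arm held cells given vehicle, 7 µM SP2509 (an LSD1 inhibitor), 7 µM UNC0642 (a G9a inhibitor) or both inhibitors, for 2 days; no separate doses were given for the combination. The genetic arm held a line carrying a Dox-inducible shRNA against LSD1 (shLSD1) and one against G9a (shG9a), both selected with puromycin, each without Dox and after 2 days of Dox. The control of each induced library was the same line without Dox. Each shRNA was represented by 1 line, and no line with Dox and a nonsilencing shRNA was analysed here, so the effects of Dox itself and of the knockdown cannot be told apart. Each condition had 1 library, so there was no replicate spread, and the intervals given cover counting error only, on reads without molecular identifiers.

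Serum amyloid A proteins, lipocalin-2 and the complement proteins are secreted by the liver and by surface epithelia when interleukin-1, interleukin-6 or tumor necrosis factor reaches the cells, and their genes are known targets of NF-κB, C/EBP and STAT3 factors. The small WAP-domain proteins elafin and SLPI protect mucosal surfaces from the elastase that neutrophils release. Complement C3 and factor B form the convertase of the alternative pathway, which marks microbes for removal. LSD1 removes methyl groups from lysine 4 of histone H3 and G9a adds them to lysine 9, and both are mostly known as repressors of transcription.

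Promoter sequence from 250 bases before to 50 bases after the start site was held by the RefSeq table (GRCh38.p14) for 3 of the 8 genes. LCN2 and CFB belong to the genes named above as known targets of NF-κB, C/EBP and STAT3 factors, whereas PDZK1IP1 was not named among them. Capitals mark the match to the NF-κB consensus in each window. All 3 windows lay inside the gene bounds of the deposited tables, whose annotation started these genes further upstream. The PDZK1IP1 window was chr1:47189987-47190286 (minus strand), the LCN2 window chr9:128149203-128149502 (plus strand) and the CFB window chr6:31945845-31946144 (plus strand).
PDZK1IP1: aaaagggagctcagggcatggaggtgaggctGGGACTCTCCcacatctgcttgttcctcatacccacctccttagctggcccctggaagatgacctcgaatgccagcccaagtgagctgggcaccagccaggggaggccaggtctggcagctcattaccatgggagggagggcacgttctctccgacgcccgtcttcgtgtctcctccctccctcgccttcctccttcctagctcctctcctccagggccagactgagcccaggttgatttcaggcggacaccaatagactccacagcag
LCN2: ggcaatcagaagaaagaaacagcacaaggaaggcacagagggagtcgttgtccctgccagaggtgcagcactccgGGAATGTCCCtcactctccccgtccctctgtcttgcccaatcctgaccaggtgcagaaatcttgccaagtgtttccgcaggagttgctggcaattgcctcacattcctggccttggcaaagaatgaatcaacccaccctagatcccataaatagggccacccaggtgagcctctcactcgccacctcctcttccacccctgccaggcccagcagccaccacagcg
CFB: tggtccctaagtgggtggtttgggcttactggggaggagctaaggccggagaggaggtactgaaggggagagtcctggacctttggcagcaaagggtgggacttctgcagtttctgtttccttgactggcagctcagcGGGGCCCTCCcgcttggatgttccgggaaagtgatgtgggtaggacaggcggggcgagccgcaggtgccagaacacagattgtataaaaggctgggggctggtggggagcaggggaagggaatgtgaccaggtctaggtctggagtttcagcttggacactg
The NF-κB match of PDZK1IP1 covered bases 219 to 210 upstream of the start, that of LCN2 bases 175 to 166 and that of CFB bases 112 to 103. The C/EBP motif TTGCNNAA was found in LCN2 at 143 to 136 bases upstream, and the AP-1 motif TGANTCA in LCN2 at 52 to 46 bases upstream. The STAT motif TTCNNNGAA was found in CFB at 92 to 84 bases upstream. Both strands were searched and no match overlapped another. Over 27305 promoter windows of the same length, 10.83% held the NF-κB motif, 10.56% the C/EBP motif, 7.881% the STAT motif and 7.764% the AP-1 motif, so a match alone was not rare. SAA1, SAA2, PI3, SLPI and C3 had no entry.

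**Figure D1:**
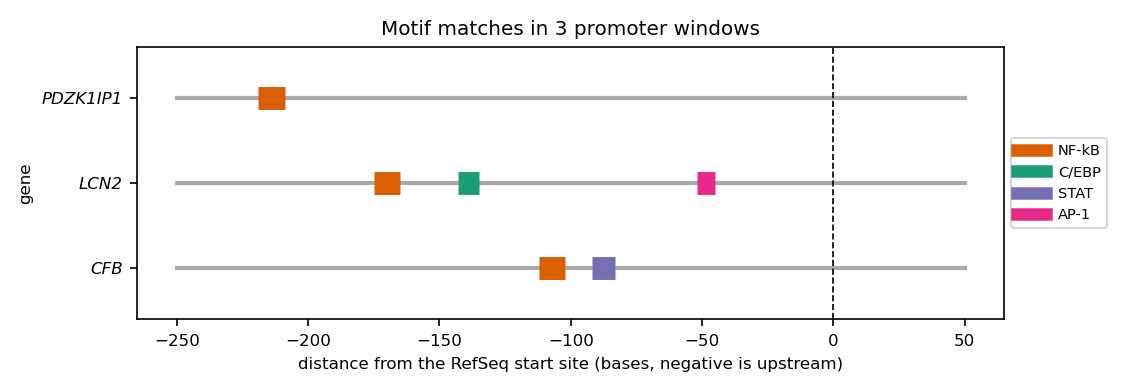
Positions of motif matches in the promoter windows of PDZK1IP1, LCN2 and CFB, with distance from the RefSeq start site in bases on the horizontal axis (negative is upstream) and 1 gene per line. Each window holds 1 NF-κB match, between 219 and 103 bases upstream, and LCN2 is the window with C/EBP and AP-1 matches.

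The library totals read from the FPKM values lay between 15662035 and 17889466 reads. KDM1A, which encodes LSD1, had 26.0 FPKM in the shLSD1 line without Dox and 6.29 with Dox, and EHMT2, which encodes G9a, had 7.85 FPKM in the shG9a line without Dox and 4.76 with Dox. Of 9 squamous epithelium markers, 8 to 9 reached 1 FPKM in each library, while KRT14 stayed between 1.10 and 10.1 FPKM. The summed squamous markers were at 1089 FPKM in vehicle cells, 4922 under SP2509, 1456 under UNC0642 and 1088 under the combination, 2190 uninduced and 581 induced for shLSD1, and 2022 and 711 for shG9a. KRT17 made most of the shifts with SP2509 and Dox (324 FPKM with vehicle and 3716 with SP2509, 1738 and 265 for shLSD1, 1596 and 158 for shG9a). In the shG9a line KRT5 (177 and 312 FPKM), KRT13 (7.08 and 17.3), KRT14 (1.59 and 4.91) and KRT6A (0.805 and 1.38) went the other way. The near-equal sums with vehicle and the combination hold opposite shifts, such as KRT17 at 324 and 594 FPKM and EPCAM at 139 and 206, against KRT5 at 427 and 163 and TP63 at 79.1 and 18.3. None of 10 hepatocyte markers reached 1 FPKM anywhere (sum 0.0179 to 0.189 FPKM). Of 10 leukocyte markers, 0 to 3 reached 1 FPKM, PTPRC was at most 0.0425 FPKM, and the sum was 0.715 to 7.12 FPKM, highest in the shLSD1 line with Dox, where CSF3R (2.29 FPKM) and CD14 (2.67 FPKM) took part. Fibroblast markers reached 1 FPKM in 1 to 2 of 6 (sum 3.23 to 6.96 FPKM) and endothelial markers in 1 to 2 of 4. The endothelial sum was 3.56 FPKM with vehicle, 12.4 with both inhibitors, and 5.54 and 14.5 in uninduced and induced shLSD1 cells, mostly CDH5 (up to 14.0 FPKM), while PECAM1 was at most 0.569 and KDR at most 0.0284 FPKM. The part of these shifts in the results below was not tested. In such bulk libraries, fewer cells that express a gene and less of its RNA per cell cannot be told apart.

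The 8 genes covered a wide span of levels. FPKM divides by a gene length, so levels of different genes within a library depend on the length used as well as on the reads. With vehicle, LCN2 was at 118 FPKM, C3 at 54.4, SLPI at 43.2, PI3 at 3.32, SAA1 at 2.59, PDZK1IP1 at 1.29, SAA2 at 0.201 and CFB at 0.0511. In the uninduced shLSD1 line the order differed, with LCN2 at 1166 FPKM, SLPI at 126, C3 at 98.3, PDZK1IP1 at 19.7, SAA1 at 6.16 and PI3 at 3.03. With 1 library per condition, no spread could separate neighbours in these orders. SAA2 reached 1 FPKM in 1 library and CFB in 0, whereas the 6 other genes did so in all 8.

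**Figure D2:**
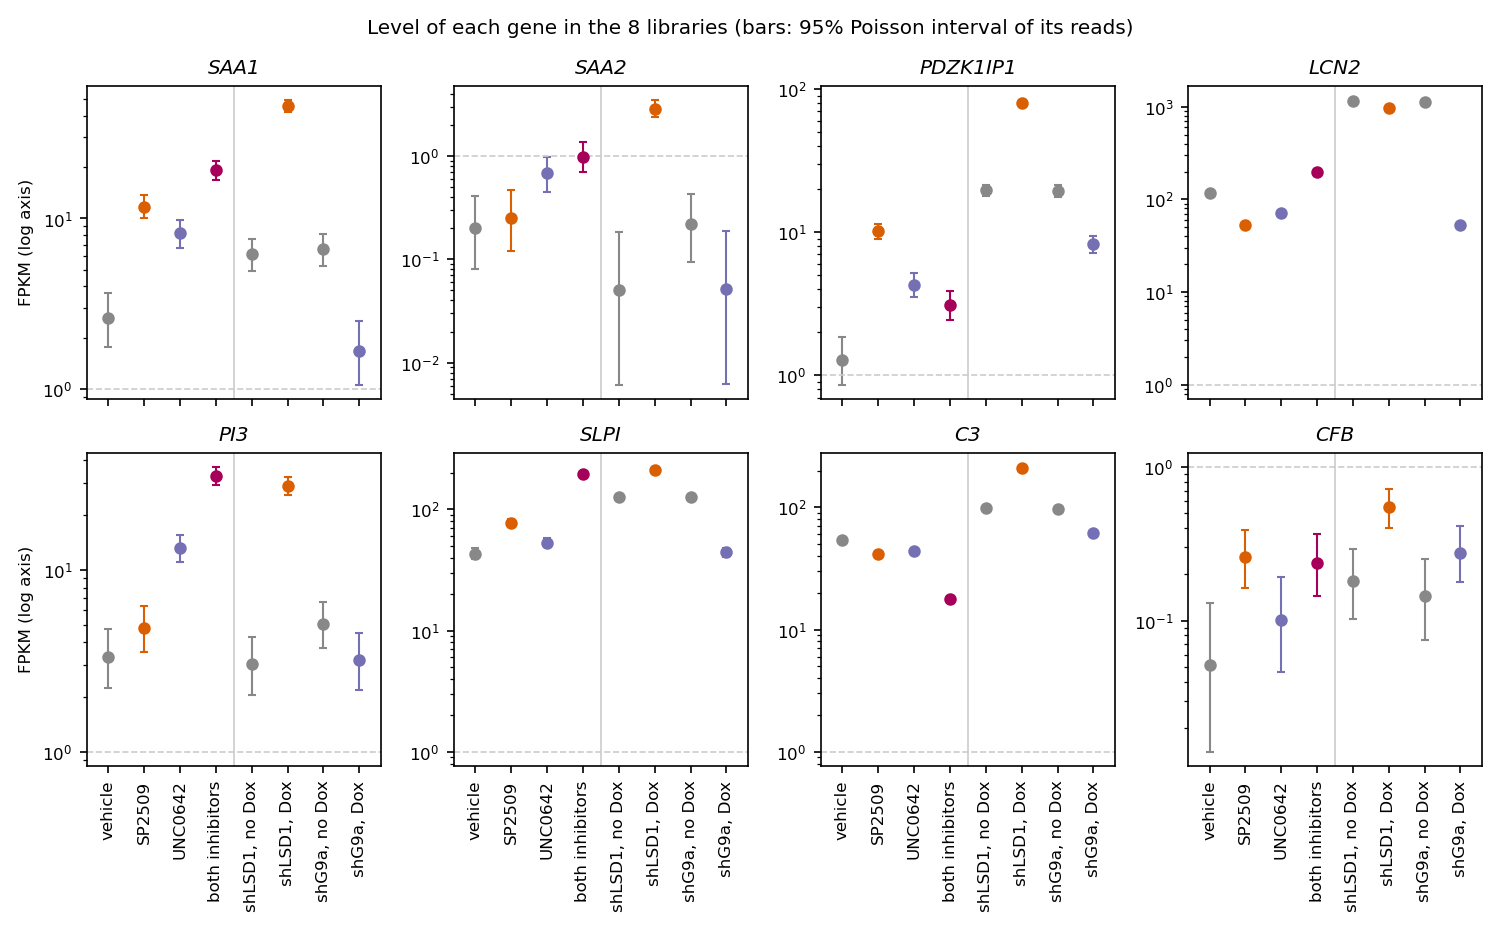
Level of each gene in FPKM (vertical log axis, a separate range per gene) in the 8 libraries, with 95% Poisson intervals of its reads as bars, the inhibitor and shRNA tables on either side of the grey line, and 1 FPKM as a dashed line. The shLSD1 line with Dox holds the highest level of SAA1, SAA2, PDZK1IP1, SLPI, C3 and CFB, and LCN2 in the shG9a line with Dox (52.6 FPKM) stands far below the line without it (1127 FPKM).

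SAA1 (ENSG00000173432, chr11:18266174-18269977, plus strand) encodes an acute-phase apolipoprotein carried on high-density lipoprotein. Vehicle cells had 2.59 FPKM, against 11.7 after SP2509, 8.18 after UNC0642 and 19.2 after both inhibitors. In the shLSD1 line it was 6.16 FPKM without Dox and 45.8 with Dox, while the shG9a line had 6.61 and 1.67 FPKM. All 3 inhibitor libraries thus lay above vehicle, and the induced lines lay on opposite sides of uninduced lines that differed by 1.07-fold. SAA2 (ENSG00000134339, chr11:18239223-18248643, minus strand), whose start is 17.5 kb from that of SAA1, encodes a near-identical protein. In FPKM it was far lower, at 0.201, 0.252, 0.678 and 0.984 with vehicle, SP2509, UNC0642 and both inhibitors, and these values rested on 7, 10, 27 and 37 reads. SAA1 had 31, 160, 112 and 248 reads in the same libraries. The fitted length there was 2227 bases for SAA2 and 765 for SAA1, so the gap in FPKM is wider than that in reads. In the shLSD1 line SAA2 had 0.0506 FPKM without and 2.87 FPKM with Dox (2 and 112 reads), and in the shG9a line 0.217 and 0.0519 FPKM (8 and 2 reads). SAA2 took 2.25% (exact binomial 95% interval 0.273 to 7.88) of the reads of both genes in the shLSD1 line without Dox and 14.9% (12.5 to 17.7) with Dox. With SP2509 the share was 5.88% (2.86 to 10.6), and with UNC0642 it was 19.4% (13.2 to 27.0). The genes are close copies and may share reads, so the division between them is uncertain.

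PI3 (ENSG00000124102, chr20:45174876-45176544, plus strand) encodes elafin, an inhibitor of neutrophil elastase that transglutaminases anchor in the epithelium. It was at 3.32 FPKM in vehicle cells, 4.77 under SP2509, 13.2 under UNC0642 and 32.9 under both inhibitors. Uninduced shLSD1 cells had 3.03 FPKM and induced ones 29.1, and shG9a cells had 5.03 FPKM uninduced and 3.20 induced. The libraries fell into 2 ranges, with UNC0642, both inhibitors and induced shLSD1 at 13.2 FPKM or more and the other 5 at 5.03 FPKM or less. SLPI (ENSG00000124107, chr20:45252239-45254564, minus strand) lies in the same chromosome 20 region and inhibits elastase and cathepsin G. SLPI stood at 43.2 FPKM in vehicle cells, 77.8 under SP2509, 53.0 under UNC0642 and 194 under the combination. Uninduced and induced shLSD1 cells had 126 and 213 FPKM, and uninduced and induced shG9a cells 125 and 44.1 FPKM. The level with both inhibitors was thus above the uninduced lines, and the level in induced shG9a cells was close to that of vehicle cells, on tables normalized separately.

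PDZK1IP1 (ENSG00000162366, chr1:47183593-47191044, minus strand) encodes MAP17, a small membrane protein that binds PDZ-domain scaffolds and is found at raised levels in many carcinomas. Vehicle cells had 1.29 FPKM, SP2509 cells 10.2, UNC0642 cells 4.31 and cells with both inhibitors 3.09. In the genetic arm it had 19.7 FPKM without and 80.2 with Dox in the shLSD1 line, against 19.5 and 8.27 FPKM for shG9a. Its level with both inhibitors was below that with either one. Across both tables, PDZK1IP1 showed the widest relative span of the 6 genes that reached 1 FPKM in all libraries, with the highest level 62.3-fold above the lowest. This span runs from vehicle to induced shLSD1, on tables normalized separately, and the uninduced shLSD1 line was already 15.3-fold above vehicle. The span of SAA1, 27.4-fold, lay within the genetic arm.

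LCN2 (ENSG00000148346, chr9:128149071-128153455, plus strand) encodes lipocalin-2, which starves bacteria of iron by binding their siderophores. It was at 118 FPKM in vehicle cells, 52.3 after SP2509, 71.7 after UNC0642 and 199.8 after the combination. Uninduced shLSD1 cells had 1166 FPKM and induced ones 964, while uninduced shG9a cells had 1127 FPKM and induced ones 52.6. Each inhibitor alone thus went with a lower level than vehicle and their combination with a higher one. The 3 shRNA libraries other than induced shG9a all lay at 964 FPKM or more, and the 5 remaining libraries at 199.8 FPKM or less.

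C3 (ENSG00000125730, chr19:6677704-6730562, minus strand) encodes the central complement protein. Its level was 54.4 FPKM in vehicle cells, 41.3 in SP2509 cells, 43.7 in UNC0642 cells and 17.7 with the combination. In the genetic arm C3 was at 98.3 FPKM in uninduced and 210 in induced shLSD1 cells, and at 97.6 and 61.8 FPKM in shG9a cells. The combination gave the lowest level and induced shLSD1 the highest, 11.9-fold apart across the 2 tables. CFB (ENSG00000243649, chr6:31945650-31952084, plus strand) encodes factor B, the protease that joins C3 in the convertase. Its level stayed between 0.0511 FPKM (vehicle, 4 reads) and 0.549 FPKM (induced shLSD1, 48 reads), with 23, 9 and 20 reads for SP2509, UNC0642 and both inhibitors, and 16 reads in uninduced shLSD1. In the shG9a line CFB had 12 reads without and 24 reads with Dox. CFB therefore never passed the filter used for calls below.

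For each comparison, a gene was counted as higher or lower when (FPKM + 1) differed by a fold of at least 1.3, the fold threshold of the study methods, with at least 1 FPKM in at least 1 of the 2 libraries, and a fold of at least 2 is given beside it. Log2 fold changes below are on the FPKM + 1 scale, which understates changes of low genes, and folds are plain FPKM ratios with exact 95% counting intervals.

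SP2509 against vehicle asked how inhibition of LSD1 changed the cells. With SP2509, PDZK1IP1 was 7.92-fold (5.38 to 12.1) and SAA1 4.54-fold (3.08 to 6.90) higher than with vehicle, and SLPI 1.80-fold (1.60 to 2.04) higher. LCN2 was 2.26-fold (2.13 to 2.41) lower and C3 1.32-fold (1.27 to 1.36) lower. PI3 counted as higher, but its interval (0.894 to 2.34) included 1. Of the 8 genes, 6 passed the filter, and 4 were higher and 2 lower at a fold of 1.3, where 21% of 13342 genes were higher and 39.9% lower. At a fold of 2, 2 genes were higher (8.25% of all genes) and 1 lower (13%). PDZK1IP1 was 145th and SAA1 284th from the top of these genes. The median log2 fold change of the 8 genes, with no filter, was 0.34, beside -0.21 over all genes past the filter and -0.01 over all listed genes. The medians of the 8 genes in the other comparisons likewise take no filter.

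UNC0642 against vehicle asked the same for G9a. Under UNC0642, PI3 was 3.97-fold (2.66 to 6.11), PDZK1IP1 3.35-fold (2.21 to 5.23) and SAA1 3.16-fold (2.11 to 4.87) higher, and LCN2 was 1.65-fold (1.56 to 1.75) lower. SLPI, at a ratio of 1.23 (1.08 to 1.40), and C3, at a ratio of 0.804 (0.777 to 0.831), did not reach the fold threshold. Of the 6 genes past the filter, 3 were higher and 1 lower, where 18.2% of 13244 genes were higher and 16.9% lower. At a fold of 2, 3 genes were higher (4.79%) and 0 lower (3.12%). SAA2 stayed below the filter at a ratio of 3.38 (1.43 to 9.19). The median log2 fold change was 0.39, beside -0.01 over all genes past the filter. SP2509 and UNC0642 therefore both went with higher SAA1 and PDZK1IP1 and lower LCN2, on the same vehicle library.

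Both inhibitors together gave the highest levels of SAA1, SAA2, PI3, SLPI and LCN2 in the inhibitor arm. PI3 was 9.90-fold (6.80 to 14.9), SAA1 7.42-fold (5.10 to 11.2), SLPI 4.49-fold (4.03 to 5.01), PDZK1IP1 2.40-fold (1.54 to 3.82) and LCN2 1.69-fold (1.61 to 1.77) higher than with vehicle. C3 was 3.08-fold (2.94 to 3.22) lower. Of the 6 genes past the filter, 5 were higher and 1 lower, where 31.4% of 13907 genes were higher and 31.7% lower. At a fold of 2, 3 genes were higher (13%) and 1 lower (9.57%). PI3 was the 103rd highest and C3 the 312th lowest of these genes. The median log2 fold change was 0.79, beside -0.02 over all genes past the filter.

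Set beside the single inhibitors, the combination lay above both for SAA1, SAA2, LCN2, PI3 and SLPI, below both for PDZK1IP1 and C3, and between them for CFB. LCN2 departed from the sum of the single log2 fold changes (-1.16 and -0.72, summing to -1.88), with 0.75 for both inhibitors, a difference of 2.63. PDZK1IP1 departed the other way. Its single values of 2.29 and 1.22 sum to 3.51 and both inhibitors gave 0.84, a difference of -2.67. The size of this departure depends on the 1 added to FPKM. With 0.01 added instead, PDZK1IP1 had 2.98 and 1.74 for the single inhibitors and 1.26 for both. LCN2 then had -1.18, -0.72 and 0.75, so the sizes for these genes are not comparable. For SLPI both inhibitors exceeded the sum by 1.02 and for PI3 by 0.84 on the log2 scale. SAA1 had 2.49 against a sum of 3.19, and C3 had -1.57 against -0.70. These differences have no replicate check. The sums take each inhibitor at its single dose, and the doses in the combination were not given separately. Whether a departure reflects dose or the joint treatment was not tested. EHMT2 itself was at 5.38 FPKM with both inhibitors and 11.1 with vehicle.

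**Figure D3:**
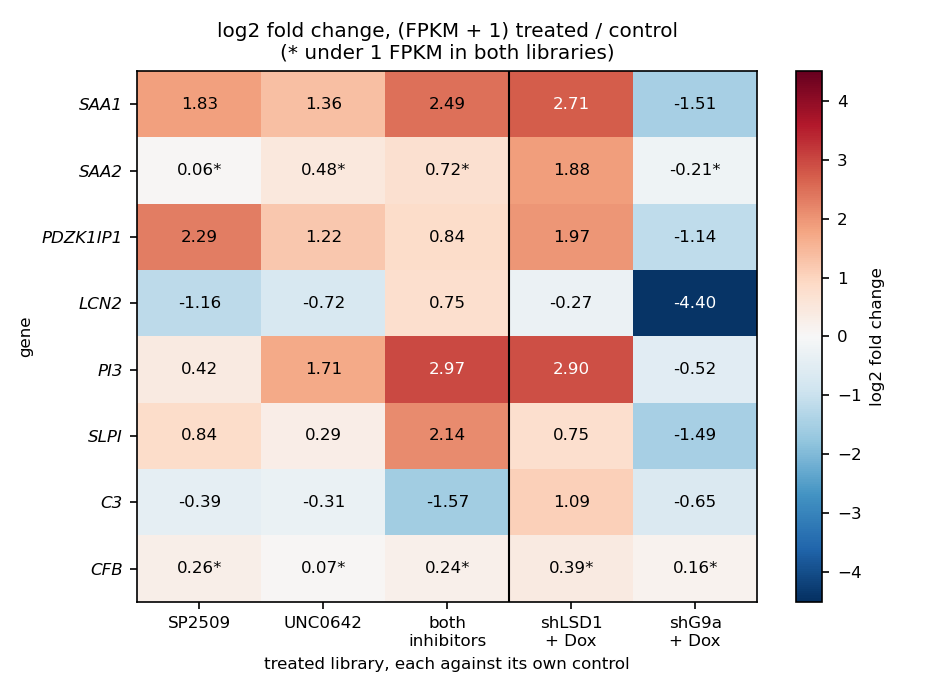
Log2 fold change of FPKM + 1 for the 8 genes (rows) in the 5 comparisons (columns), each treated library against its own control, with red for higher, blue for lower and a star where both libraries were under 1 FPKM. The shLSD1 column runs from -0.27 for LCN2 to 2.90 for PI3, and the shG9a column from -4.40 for LCN2 to 0.16 for CFB.

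Dox in the shLSD1 line asked what silencing of LSD1 changed. PI3 was 9.62-fold (6.63 to 14.4), SAA1 7.44-fold (5.94 to 9.41), PDZK1IP1 4.08-fold (3.70 to 4.51), C3 2.13-fold (2.09 to 2.18) and SLPI 1.69-fold (1.57 to 1.81) higher with Dox than without it. SAA2 had a ratio of 56.8 (15.4 to 475), against 2 reads without Dox. LCN2, at a ratio of 0.827 (0.814 to 0.840), did not reach the fold threshold. Of the 7 genes past the filter, 6 were higher and 0 lower, where 24.8% of 12970 genes were higher and 12.3% lower (17.0% and 16.6% once ratios were centred on the median gene), and SAA2 passed the filter through the library in which it was high. At a fold of 2, 5 genes were higher (3.36%) and 0 lower (3.27%). PI3 and SAA1 were the 8th and 10th highest of these genes. The median log2 fold change was 1.48, beside 0.13 over all genes past the filter.

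Dox in the shG9a line addressed G9a in the same way, and SAA1, SAA2, PI3, SLPI, PDZK1IP1 and C3 lay on the other side of their control from the shLSD1 line, whereas LCN2 was below and CFB above its control in both lines. LCN2 was 21.4-fold (20.3 to 22.6) lower with Dox, SAA1 3.96-fold (2.48 to 6.57), SLPI 2.84-fold (2.55 to 3.17), PDZK1IP1 2.35-fold (1.99 to 2.79) and C3 1.58-fold (1.54 to 1.62) lower. PI3 counted as lower, but its ratio of 0.637 (0.394 to 1.02) had an interval that included 1. CFB had a ratio of 1.91 (0.919 to 4.19) below the filter. Of the 6 genes past the filter, 0 were higher and 6 lower, where 32.9% of 13080 genes were higher and 17.6% lower (22.5% and 22.5% once centred). At a fold of 2, 0 genes were higher (5.13%) and 4 lower (6.02%). LCN2 was the 6th lowest of these genes, on 1455 reads with Dox and 29801 without it. The median log2 fold change was -0.90, beside 0.18 over all genes past the filter.

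**Figure D4:**
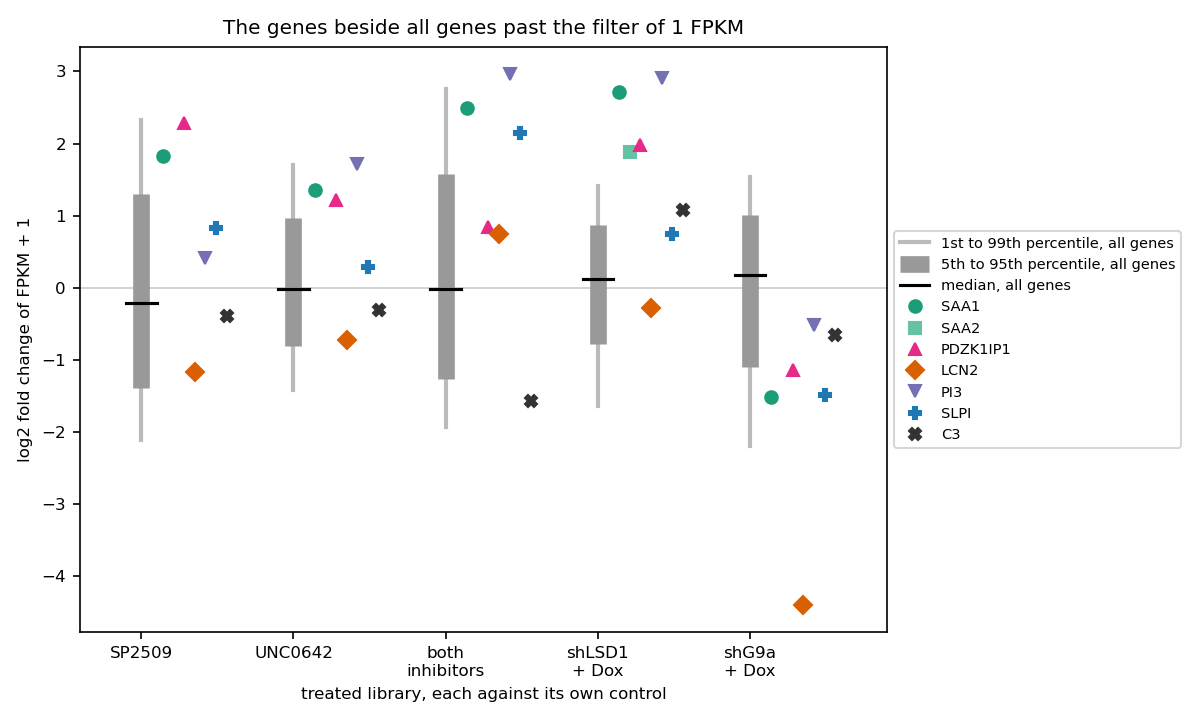
Log2 fold change of FPKM + 1 (vertical axis) of the 7 genes that passed the filter of 1 FPKM in at least 1 comparison, beside the median, the 5th to 95th and the 1st to 99th percentile of all genes past it. In the shLSD1 column SAA1, SAA2, PDZK1IP1 and PI3 lie above the 99th percentile (1.42), and in the shG9a column LCN2 at -4.40 lies below the 1st percentile (-2.18).

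Among genes at 5 FPKM or more in each library of a pair, the median log2 fold change was -0.09 with SP2509, 0.04 with both inhibitors, 0.11 with Dox in the shLSD1 line and 0.14 with Dox in the shG9a line. Relative to these medians, C3 was -0.30 with SP2509 and no longer reached a fold of 1.3, and LCN2 in the shLSD1 line was -0.38 and did reach it. LCN2 in the shG9a line became -4.54 and C3 there -0.79, and C3 in the shLSD1 line became 0.98. Of the 40 log2 fold changes of the 8 genes, 0 changed sign under the alternatives. A change of pseudocount cannot alter a sign, so only centring and the mean of both uninduced lines as control could have done so.

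The control libraries were not alike between arms, which were normalized separately. PDZK1IP1 was 15.3-fold higher in uninduced shLSD1 and 15.1-fold higher in uninduced shG9a than with vehicle, and LCN2 9.85-fold and 9.52-fold higher. SLPI was 2.93-fold and 2.90-fold, SAA1 2.38-fold and 2.55-fold, and C3 1.81-fold and 1.79-fold higher in the uninduced lines. CFB, on few reads, had ratios to vehicle of 3.53 and 2.84. PI3 had ratios of 0.912 in uninduced shLSD1 and 1.52 in uninduced shG9a, and SAA2 0.252 and 1.08, so these genes were not higher in both. The share of all genes that differed in this way between arms is not given here. The uninduced lines themselves differed by 1.01-fold for PDZK1IP1, SLPI and C3, 1.03-fold for LCN2, 1.07-fold for SAA1, 1.24-fold for CFB and 1.66-fold for PI3. SAA2 differed by 4.29-fold (2 reads in the shLSD1 line and 8 in the shG9a line), and its ratio with Dox in the shLSD1 line rests on the lower of these controls. LCN2 in induced shG9a (52.6 FPKM) was thereby also below vehicle cells, while C3 there (61.8 FPKM) was above them. The fitted length of SAA1 also differed between tables (765 and 796 bases).

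The genes varied together to different degrees. With log2(FPKM + 1) centred within each table, the correlation over the 8 libraries was above 0 in 26 of 28 gene pairs, with a median Pearson r of 0.58, from -0.05 (LCN2 and CFB) to 0.91 (SAA2 and PI3). SAA1 followed the mean of the 8 genes most closely (r = 0.98), followed by SAA2 (0.92), PDZK1IP1 (0.86), PI3 and SLPI (both 0.83) and CFB (0.74). LCN2 (0.58) and C3 (0.45) followed it least. Each gene was scaled to a standard deviation of 1 and is itself part of this mean, which raises its r. SAA2 and CFB, on few reads, thus weigh as much as LCN2. Among 5907 genes searched, those most like this mean were IFIT2 (r = 0.98), TNIP3 and AC087645.2 (both 0.94), MELTF (0.93), C15orf48, TSPAN3, TXNRD1 and ZP3 (each 0.92), and AC093904.3 and SPP1 (both 0.91). IFIT2 had 1.77, 2.70, 1.96 and 3.32 FPKM with vehicle, SP2509, UNC0642 and both inhibitors, 4.83 without and 10.3 with Dox in the shLSD1 line, and 5.22 without and 3.42 with Dox in the shG9a line. The share of pairs with r above 0 among other genes was not computed. The points share libraries, totals and controls, and the genes were chosen for their values, so these figures only describe the pattern.

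Neighbouring genes within 50 kb of each start gave a local background. Of the 5 neighbours of LCN2 that reached 1 FPKM in any library, the log2 fold changes with Dox in the shG9a line ran from -0.25 (DNM1) to 0.27 (C9orf16 and SLC25A25-AS1), beside -4.40 for LCN2. With SP2509, PTGES2 (20.6 kb away) had -1.20 and PTGES2-AS1 (20.5 kb, 1.03 FPKM with vehicle) -1.02, beside -1.16 for LCN2. SLC25A25-AS1, C9orf16 and DNM1 had -0.35, -0.27 and -0.20 there. CYP4A22-AS1, the neighbour of PDZK1IP1, ran from -0.18 to 0.64. The start of EHMT2 lay 48.0 kb and that of C2, the classical pathway paralogue of factor B, 47.9 kb from the start of CFB. C2 had 1.02 FPKM without and 2.02 with Dox in the shLSD1 line. The 7 other neighbours of CFB (ZBTB12, C2-AS1, SKIV2L, NELFE, STK19, DXO and C4A) had log2 fold changes between -0.997 (ZBTB12 with SP2509) and 0.76 (C4A with Dox in the shG9a line). Next to C3, GPR108 (7.0 kb away) had log2 fold changes from -0.60 to -0.13 in the 5 comparisons, and TRIP10 (7.4 kb) reached 1.23 with SP2509. SH2D3A (37.0 kb) had 1.97 with SP2509 and -1.04 in the shG9a line, beside -0.39 and -0.65 for C3, and 16.1 FPKM uninduced against 7.52 induced in shLSD1 cells, where C3 was higher. AC008760.2, a transcript within an intron of C3 on the same strand, had 1.36 FPKM with vehicle and 0.0873 with both inhibitors, and since the use of strand in counting was not stated, its reads and those of C3 may not be separate. AC008760.1 (20.9 kb from the start of C3) had 0.61 with SP2509 and -0.38 in the shLSD1 line. Apart from each other, SAA1 and SAA2 had RNA5SP334 as neighbour, 0.2 kb from the start of SAA1. It had 1.54 FPKM in uninduced shG9a and 0 in induced shG9a. No neighbour of PI3 or SLPI reached 1 FPKM.

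The counts of related genes below are set beside the shares of all genes given above. A gene can pass the filter through the 1 library in which it is high, as FGB, FGG and WFDC3 did in comparisons below. List medians are therefore given over all listed genes, with no filter. Genes near 0 FPKM have a log2 fold change near 0 on the FPKM + 1 scale, which holds these medians near 0 where many listed genes are low. A median near 0 thus does not show that the expressed genes of a list were unchanged. Over all genes listed in the tables these medians were -0.01, 0, 0, 0.01 and 0.04 on the log2 scale for SP2509, UNC0642, both inhibitors, shLSD1 and shG9a.

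Other acute-phase liver proteins were mostly below the filter. Of 20 such genes, 13 were listed in the inhibitor table and 15 in the shRNA table. With SP2509 1 gene passed the filter and 0 were called. UNC0642 had 1 higher of 1, both inhibitors 1 higher and 1 lower of 2, shLSD1 4 higher of 5 and shG9a 2 lower of 2. Their median log2 fold change lay between 0 and 0.01 in the 5 comparisons. CP (ceruloplasmin, a copper oxidase of plasma) had 15.3 FPKM with vehicle and 2.40 with both inhibitors, and reached 88.7 FPKM in the induced shLSD1 line (log2 fold change 0.99). FGB, a fibrinogen chain, had 0.0416 FPKM without and 5.80 with Dox in the shLSD1 line, and FGG, another chain, 0.0156 and 2.13 FPKM.

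The partners of C3 in the complement system were split into components and regulators. Of 33 components and receptors, 2 were higher and 2 lower of 4 past the filter with SP2509, 2 and 1 of 5 with UNC0642, 3 and 3 of 7 with both, 8 and 0 of 11 in the shLSD1 line and 5 and 1 of 10 in the shG9a line. The medians of this list were 0, 0, 0.01, 0.09 and 0.01 in the order above. The classical pathway proteases were among the 3 genes with the largest changes, C1R in the shLSD1 line at 13.5 FPKM without and 37.9 with Dox and C1S at 34.6 and 93.3. ITGAX, a chain of complement receptor 4, had 0.0271 FPKM with vehicle and 2.96 with both inhibitors. Of 15 regulators, 5 were higher and 1 lower of 7 with SP2509, 1 and 0 of 7 with UNC0642, 4 and 4 of 8 with both, 5 and 0 of 8 in the shLSD1 line and 2 and 2 of 8 in the shG9a line, with medians of 0.09, 0.05, 0.06, 0.10 and 0.02. CD55, which speeds the decay of C3 convertases, had 32.5 FPKM with vehicle, 112 with both inhibitors, and 35.0 without against 7.78 with Dox in the shG9a line. CLU (clusterin) had 33.2 FPKM with vehicle and 88.5 with both inhibitors, and SERPING1, the C1 inhibitor, 0.0354 and 3.14.

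Relatives of PI3 and SLPI with a WAP domain, together with elastase and its other inhibitors, made a list of 21 genes. Of those past the filter, 3 of 4 were higher with SP2509, 2 of 3 with UNC0642 and 2 of 3 with both inhibitors, with 0 lower in each. In the shLSD1 line 2 of 5 were higher and 1 lower, and in the shG9a line 0 of 5 were higher and 4 lower. The list medians were 0.16, 0.09, 0.18, 0 and -0.13. WFDC2 was at 10.7 FPKM in vehicle cells, 12.4 under SP2509, 21.7 under UNC0642 and 27.0 under both inhibitors, and had 53.7 without against 108 with Dox in the shLSD1 line. WFDC3 had 0.106 FPKM with vehicle and 6.36 with both inhibitors. WFDC5 was lower with Dox in both lines, with 5.29 FPKM without and 0.547 with Dox in the shLSD1 line and 5.04 and 0.0553 in the shG9a line. ELANE, neutrophil elastase itself, was at most 0.274 FPKM.

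Antimicrobial genes formed a list of 32. Higher and lower were 3 and 1 of 5 with SP2509, 7 and 1 of 8 with UNC0642, 6 and 1 of 8 with both inhibitors, 8 and 1 of 12 in the shLSD1 line and 3 and 2 of 11 in the shG9a line, and the medians were 0, 0.06, 0.15, 0.15 and 0. RNASE7, a skin antimicrobial ribonuclease, went from 5.07 FPKM in vehicle cells to 68.2 under SP2509, 75.1 under UNC0642 and 180 under both inhibitors, but had 42.5 without and 17.2 with Dox in the shLSD1 line and 35.7 and 10.7 in the shG9a line. S100A9, a subunit of the metal-binding calprotectin, had 30.4 FPKM without and 302 with Dox in the shLSD1 line and 40.7 and 44.1 in the shG9a line. RNASE7 was thus lower with Dox in both lines, where SAA1, PI3 and PDZK1IP1 lay on opposite sides.

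Cytokines and receptors that induce such genes made a list of 35. Higher and lower were 13 and 2 of 22 past the filter with SP2509, 14 and 3 of 23 with UNC0642, 18 and 5 of 27 with both inhibitors, 7 and 6 of 21 in the shLSD1 line and 5 and 10 of 21 in the shG9a line. Medians of 0.30, 0.32, 0.66, 0 and -0.14 went with these counts. IL1A (interleukin-1α) was at 31.0 FPKM in vehicle cells, 217 under SP2509, 184 under UNC0642 and 71.6 under both inhibitors. In the shLSD1 line IL1A had 41.8 FPKM without and 9.79 with Dox, and in the shG9a line 39.8 and 0.0272. IL1B (interleukin-1β) had 224, 70.5 and 65.2 FPKM with SP2509, UNC0642 and both (log2 fold changes 4.65, 2.99 and 2.88), then 20.5 and 2.53 in the shLSD1 line and 17.0 and 0.224 in the shG9a line. Both cytokines were higher with every inhibitor and lower with Dox in both lines, so in the shLSD1 line they lay on the other side of their control from SAA1 and PI3. IL11 had 24.1 FPKM with both inhibitors and at most 0.293 in the other 7 libraries.

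NF-κB, C/EBP and STAT3 factors and their feedback genes made a list of 28. Higher and lower were 13 and 6 of 27 with SP2509, 3 and 5 of 27 with UNC0642, 10 and 8 of 27 with both inhibitors, 11 and 2 of 27 in the shLSD1 line and 3 and 12 of 26 in the shG9a line, beside medians of 0.26, 0.01, 0.08, 0.24 and -0.30. TNFAIP3 (A20, a feedback inhibitor of NF-κB) had 27.9 FPKM with vehicle and 365, 101 and 68.8 with SP2509, UNC0642 and both, but 86.6 without and 13.1 with Dox in the shLSD1 line and 85.5 and 5.56 in the shG9a line. SOCS3, the feedback inhibitor of STAT3 signalling, had 3.71 FPKM with vehicle and 22.6, 13.6 and 13.7 with the inhibitors, then 22.2 and 33.4 in the shLSD1 line and 24.7 and 15.1 in the shG9a line. CEBPD, an acute-phase C/EBP factor, had 20.9 FPKM with vehicle and 3.43 with both inhibitors, and 25.5 without against 52.4 with Dox in the shLSD1 line. SOCS3 was thus on the same side of its control as SAA1 in all 5 comparisons, whereas TNFAIP3 was not in the shLSD1 line.

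**Figure D5:**
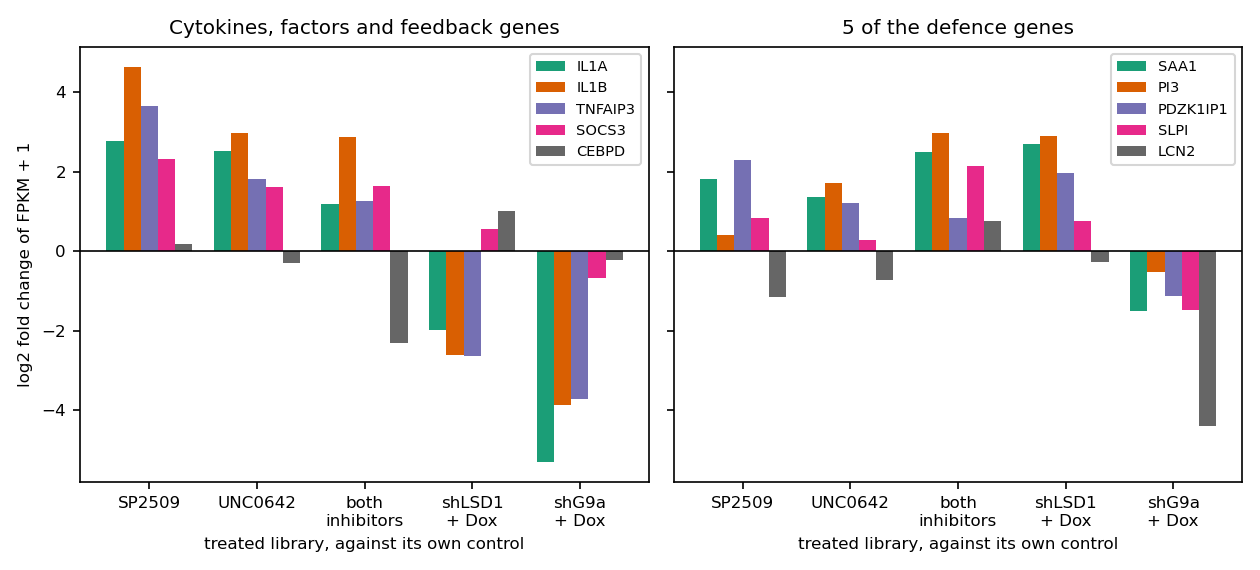
Log2 fold change of FPKM + 1 (vertical axis) in the 5 comparisons for 2 cytokines and 3 factor or feedback genes (left) and for 5 of the defence genes (right). IL1A, IL1B and TNFAIP3 point up with each inhibitor treatment and down with Dox in both lines (-1.99 to -2.64 in the shLSD1 line), while SAA1, PI3 and PDZK1IP1 point up in the shLSD1 line (1.97 to 2.90).

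Known receptors and binding partners of the 8 proteins made a list of 20, of which 10 or 11 passed the filter in each comparison. Higher and lower were 3 and 2 with SP2509, 2 and 1 with UNC0642, 3 and 4 with both inhibitors, 6 and 2 in the shLSD1 line and 4 and 5 in the shG9a line, and the medians were 0, -0.02, 0.04, 0.02 and 0.06. SLC9A3R1, the scaffold NHERF1, had 24.7 FPKM with vehicle and 5.46 with SP2509, and 22.1 without against 56.8 with Dox in the shG9a line. TGM1, a transglutaminase of the cornified envelope, had 13.6 FPKM without and 2.21 with Dox in the shG9a line. PDZK1, the scaffold that names PDZK1IP1, was at most 0.442 FPKM, and SLC22A17, a receptor of lipocalin-2, at most 0.0283.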

How the data were processed

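RNA from 8 Kyse510 libraries, 1 per condition, was sequenced as paired-end reads. Mapping by the authors was to the human genome build GRCh38, and FPKM values were deposited in 2 tables, with 31582 genes for the inhibitors and 28942 for the shRNA lines, normalized separately. The tables also hold gene annotation. The aligner, the counter and the use of strand are not given in the sources used here. Groups were taken from the sample labels.

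The FPKM of a gene steps in whole reads, so library totals and reads per gene were computed from these steps. The reads summed to 99.6% to 99.79% of the totals, and 1 gene per table gave no whole reads. Of 11539 genes with at least 20 reads in every library, 775 had another fitted length in each table. The procedure was tested on simulated data. Folds were computed as (FPKM + 1) ratios, with a filter of 1 FPKM in at least 1 of the 2 libraries and fold thresholds of 1.3 and 2. The study's p threshold of 0.05 was not applied, and no test was made. Intervals are exact Clopper-Pearson bounds (95%) from the reads. Python 3.11.15, numpy 2.4.6, pandas 2.3.3, SciPy 1.17.1, numba 0.67.0 and matplotlib 3.10.9 were used.

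The 8 genes, the 8 related gene lists and the markers were chosen with earlier results of these data known. From each list the 3 genes with the largest absolute log2 fold change past the filter are named (1 of them is not reported here), with further list genes where a sentence on a partner of the 8 genes needed them, neighbours within 50 kb that reached 1 FPKM, and the 10 genes most alike in pattern (range of at least 1 on the log2 scale). Alternatives were pseudocounts of 0.1 and 0.01, no filter, a filter of 5 FPKM, a fold of 2, centring on the median log2 ratio of genes at 5 FPKM or more in each library, the mean of both uninduced lines as control, protein-coding genes only and the smallest fitting length.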

Additional observations from a re-analysis of the deposited data

Results flagged for a closer look

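For 5 genes that passed the filter in both lines, the induced library lay above its control in the shLSD1 line and below it in the shG9a line. SAA2 had the same directions, but was below the filter in the shG9a line (8 reads without and 2 with Dox). LCN2 passed the filter in both lines but lay below its control in both (log2 fold changes -0.27 and -4.40). The share of all genes with opposite directions in the lines was not computed. The log2 fold change with Dox in the shLSD1 line minus that in the shG9a line was 4.22 for SAA1, 3.42 for PI3, 3.12 for PDZK1IP1, 2.24 for SLPI and 1.74 for C3. Each line had 1 library per condition and the genes were chosen with these values known, so the differences were not tested, and the interval of PI3 in the shG9a line (0.394 to 1.02 as a ratio) included 1.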

How the results depend on the processing

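With 1 library per condition no replicate could be left out. No paired analysis was possible because each group had 1 library. For the counts of the 8 genes, 58 alternative values stayed within 1.5 times of those given and 6 did not. With a fold of 2, 2 genes were higher and 1 lower with SP2509, 0 lower with UNC0642 and 3 higher with both inhibitors. With ratios centred on the median, 1 gene was lower with SP2509 (C3 no longer counted) and 1 lower with Dox in the shLSD1 line (LCN2, at -0.38). Of 40 log2 fold changes, 0 changed sign over 136 alternative values. Many of these values differ only in the pseudocount, which cannot alter a sign. Only the centred values and those with the mean of both uninduced lines as control could have reversed. Low genes moved most with a pseudocount of 0.01, such as SAA2 in the shLSD1 line (5.57). Taking the smallest fitting length gave LCN2 1482, 744, 1025 and 2695 reads in the inhibitor table, with intervals then wider than those given. Depth limited SAA2 and CFB, which had 2 to 48 reads in all libraries but induced shLSD1 for SAA2 (112 reads).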
